A study of Mus musculus with 4 samples.

Results

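The p53 response genes measured here are Trp53, which encodes the transcription factor p53, and 9 genes that p53 is known to switch on: Mdm2, Trp53inp1, Bax, Bbc3, Pmaip1, Phlda3, Perp, Ccng1 and Sesn1. They were chosen by name, as every probe carrying 1 of these 10 gene names among the spots of the arrays that were not controls. This gave 16 probes of 41174 and 43 spots of 43379. All 16 probes were well above background in both channels on all 4 arrays, and none of their spots was saturated, so all 10 genes stood among the 19091 genes tested.

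The tissue was the atrioventricular canal of the mouse embryo heart at e10.5, counted in days from mating, the segment between the early atria and ventricles from which the valve cushions and part of the conduction system form. There were 4 pools of canal tissue from Tbx3 mutant embryos, called hypomorphic (reduced in function) in the series title, and 4 pools from wild type control embryos. Each pool held tissue from 5 hearts, and both genotypes had the mixed background 50%Sv129; 50% C57Bl6. Each array carried 1 mutant pool, labelled with the red dye Cy5, and 1 control pool, labelled with the green dye Cy3, so that an effect of the dye on a gene and an effect of the genotype cannot be told apart. How the Tbx3 allele was built, and the litters and sex of the embryos, are not stated in the labels. Tbx3, a T-box repressor of transcription, had log2 ratios of mutant over control of -1.35, -1.40, -1.43 and -1.21 on arrays 1 to 4, which fits the labels. Its mean of -1.35 ± 0.10 (SD, n = 4; adjusted p = 0.0454, limma) made it the only 1 of the 19091 genes past the threshold of 0.05.

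As background, p53 is held low in unstressed cells by Mdm2, a ubiquitin ligase that marks it for breakdown, and DNA damage or other stress releases it. Free p53 binds DNA as a tetramer and raises genes that arrest the cell cycle, repair DNA, adjust metabolism or start apoptosis, and it raises Mdm2 as well, which closes a feedback loop. Because p53 is controlled mainly through its protein, the level of its transcript says little about its activity. In the embryo the pathway is best known from mice that lack Mdm2, which die early unless p53 is lost too.

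The array probes are oligonucleotides of 60 bases, and 5 of the 16 are shown, 1 for each of 5 genes discussed below, because the values of these genes differ between their probes or rest on 1 probe. Each holds at least 1 forward reading frame without a stop codon. They are written without capitals, 5′ to 3′ on the strand of the gene, with positions in build mm7 as the files give them. Trp53 is read at chr11:69671206-69671265 (plus strand), Mdm2 at chr10:117204040-117204099 (minus strand), Bax within chr7:41641827-41641982 (minus strand), Ccng1 at chr11:40693768-40693827 (minus strand) and Sesn1 at chr10:41717952-41718011 (plus strand). No annotation of mm7 was used here, so exons are not named.
Trp53: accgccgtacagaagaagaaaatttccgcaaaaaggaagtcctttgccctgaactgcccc
Mdm2: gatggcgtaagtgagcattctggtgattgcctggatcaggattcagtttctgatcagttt
Bax: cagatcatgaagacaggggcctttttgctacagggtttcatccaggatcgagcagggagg
Ccng1: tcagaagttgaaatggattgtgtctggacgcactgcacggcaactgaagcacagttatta
Sesn1: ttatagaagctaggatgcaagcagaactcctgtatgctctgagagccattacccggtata

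Another sequence is shown because it limits what its probe can say. The upstream probe of Trp53inp1 (chr4:11098180-11098239 in mm7, plus strand) holds a unit of 26 bases, in capitals here, that begins at base 1 and again at base 27 of the probe. None of its 3 forward frames is open.
Trp53inp1 unit: AGTACTAATACTTACCACAGCAGGCG

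Promoters were searched for the p53 decamer consensus, the 10-base motif that p53 binds in pairs, on both strands and for no other motif. The windows were the 250 bases before each transcription start, as RefSeq gives them for build GRCm38.p6. They were searched for 7 of the 10 genes. Pmaip1 was left out of the search, and no window was searched for Trp53inp1 or Perp. The motif lay in 5 of these 7 genes, which is 71.43%, against 8.20% of 27025 genes. It was found 201 to 192 bases before the start in Bax, 186 to 177 in Mdm2, 185 to 176 in Ccng1, 173 to 164 in the downstream of the 2 windows of Sesn1 and 75 to 66 in Trp53, and in neither Phlda3 nor the 3 windows of Bbc3. Apart from Trp53, these genes are on the list because p53 is known to switch them on. A high share is therefore no independent result, and its cause was not tested. A match is no proof of binding. The windows of Ccng1 (chr11:40755287-40755536, minus strand) and Mdm2 (chr10:117710759-117711008, minus strand) are shown as examples, with the decamer in capitals.
Ccng1: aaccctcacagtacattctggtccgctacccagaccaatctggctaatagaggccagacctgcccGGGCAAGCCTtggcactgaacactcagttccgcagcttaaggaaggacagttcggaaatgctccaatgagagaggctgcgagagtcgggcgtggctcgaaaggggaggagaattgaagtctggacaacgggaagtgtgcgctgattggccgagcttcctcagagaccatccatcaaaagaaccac
Mdm2: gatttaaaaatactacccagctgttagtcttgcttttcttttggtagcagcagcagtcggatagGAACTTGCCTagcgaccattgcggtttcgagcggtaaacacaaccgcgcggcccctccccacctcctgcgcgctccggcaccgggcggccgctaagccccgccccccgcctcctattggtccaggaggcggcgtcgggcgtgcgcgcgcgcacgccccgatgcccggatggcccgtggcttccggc

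Ratios below are log2 values of mutant over control on 1 array, after background correction and loess normalization, and levels are normalized log2 signals of 1 channel. Levels of different probes are not set against each other. Where a gene had several probes, the brightest stood for it. The 4 arrays did not behave alike: the SD of log2 ratios over all genes was 0.49 on array 2 and 0.26 to 0.29 on the others. Across genes, the ratios of array 2 had Pearson correlations of -0.060 to 0.075 with those of the other arrays. Array 1 correlated at 0.25 with array 3 and 0.35 with array 4, and arrays 3 and 4 at 0.66. Hoxa10, a homeobox gene of the uterus, had a signal of 72.1 to 126 in mutant pools, and in control pools 3718 on array 2 and 73.1 to 86.6 on the others. Each result is therefore given with 4 arrays and, where array 2 changes it, with arrays 1, 3 and 4.

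None of the 10 p53 response genes passed the threshold, in a comparison in which 0.00524% of all genes did. The means of 8 of them lay below 0, as did those of 49.7% of all genes. Their median was -0.19, against 0.0012 for all genes. With each array centred on its median in place of loess, the medians were instead 0.26 and 0.23. An unadjusted p under 0.05 was reached by 3, namely Trp53inp1, Sesn1 and Ccng1, all with negative means, where 14.6% of all genes reached it in either direction and 7.45% with a negative mean. The same 3 were lower on all 4 arrays, as were 12.6% of all genes, and had all 4 mutant levels below all 4 control levels, as did 5.12% of all genes. No member was higher on all 4 arrays by its brightest probe. Under the same median centring Trp53inp1 stayed negative at -0.13, while Sesn1 (0.12) and Ccng1 (0.19) turned positive. That setting also moved the median of genes as bright as the 10 to 0.34. In pooled tissue, fewer cells of a type and less RNA per cell cannot be told apart, and the p-values measure only the spread between these pools.

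**Figure D1:**
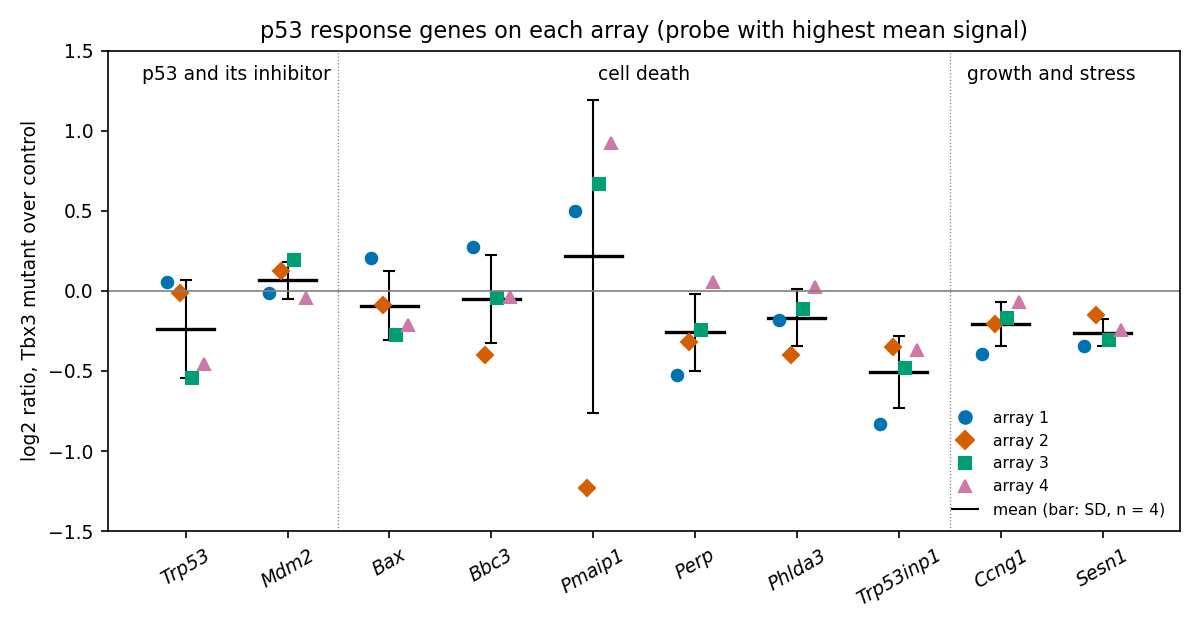
Log2 ratio of Tbx3 mutant over control for the 10 p53 response genes (y axis), grouped by role, with 1 symbol for each of 4 arrays, a line for the mean and a bar for the SD. With loess normalization Trp53inp1, Ccng1 and Sesn1 lie below 0 on all 4 arrays, and Pmaip1 has array 2 at -1.23 and the other arrays between 0.50 and 0.92. With median centring, the means of Ccng1 and Sesn1 were 0.19 and 0.12, and genes as bright as the 10 had a median of 0.34.

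Trp53 showed no stable difference, and its 2 probes differed in sign. The downstream probe had levels of 9.76, 9.67, 9.33 and 9.59 in mutant pools and 9.70, 9.68, 9.87 and 10.05 in control pools, on arrays 1 to 4. The ratios were 0.057, -0.011, -0.54 and -0.45, so arrays 3 and 4 carried the lower mean while arrays 1 and 2 lay near 0. The mean was -0.24 ± 0.31 (SD, n = 4; 95% interval -0.55 to 0.078; adjusted p = 0.453, limma). That probe was printed on 10 spots, whose SD within an array was 0.025 to 0.053, far under the SD of 0.31 between arrays. Repeated spots measure only the technical spread within an array.

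The upstream Trp53 probe (chr11:69662031-69662089 in mm7) gave ratios of 0.26, 0.20, 0.015 and 0.089, above 0 on all 4 arrays. Its mutant levels were 9.10, 9.24, 8.98 and 9.11, against 8.84, 9.04, 8.97 and 9.02 in control pools, and these ranges overlapped. The mean of 0.14 ± 0.11 (SD, n = 4) had an adjusted p of 0.447 in a limma fit over all probes.

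Mdm2, both the brake on p53 and its target, was near 0 by its brightest probe (chr10:117200593-117200652 in mm7). Levels there were 11.58, 11.73, 11.74 and 11.55 in mutant pools and 11.59, 11.60, 11.55 and 11.59 in control pools. The ratios of -0.013, 0.13, 0.19 and -0.045 gave a mean of 0.065 ± 0.11 (SD, n = 4; 95% interval -0.11 to 0.24; adjusted p = 0.707, limma). By this probe the mutant pools were above their controls on arrays 2 and 3 and below them on arrays 1 and 4.

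The other Mdm2 probe, whose sequence is shown above, read higher in mutant pools on every array. Its levels were 9.60, 9.21, 9.48 and 9.75 in mutant pools, against 9.13, 9.01, 9.10 and 9.19 in control pools, with no overlap. The ratios of 0.48, 0.20, 0.38 and 0.56 averaged 0.40 ± 0.15 (SD, n = 4), with an adjusted p of 0.173 in the limma fit over all probes and 0.0574 without array 2. It lies upstream of the brightest probe, and its 10 spots differed within an array by an SD of 0.038 to 0.053. Neither probe passed the threshold, so no direction is given for Mdm2.

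The 3 BCL-2 family genes that p53 raises to start apoptosis did not move together. Bax, which permeabilizes the outer mitochondrial membrane, had levels of 12.78, 12.43, 12.39 and 12.59 in mutant pools and 12.58, 12.52, 12.67 and 12.80 in control pools. Its ratios were 0.21, -0.091, -0.28 and -0.21, higher on array 1 and lower on the others. The mean was -0.093 ± 0.21 (SD, n = 4; 95% interval -0.34 to 0.15; adjusted p = 0.703, limma), and the 10 spots of the probe shown above differed within an array by an SD of only 0.014 to 0.025.

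Bbc3, also known as Puma, encodes a protein that frees Bax and its relatives from their inhibitors. Its probe (chr7:14080459-14080518 in mm7, plus strand) had levels of 11.93, 11.48, 11.80 and 11.76 in mutant pools, against 11.66, 11.88, 11.85 and 11.80 in control pools. The ratios of 0.28, -0.40, -0.044 and -0.041 put arrays 1 and 2 on opposite sides of 0. They averaged -0.052 ± 0.28 (SD, n = 4; adjusted p = 0.874, limma), and 0.064 ± 0.18 without array 2, so even the sign rested on that array.

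Pmaip1, also known as Noxa, encodes a small protein that blocks the survival factor Mcl1, and it differed most between arrays. Levels of its single probe were 9.12, 8.04, 9.16 and 9.43 in mutant pools and 8.62, 9.27, 8.49 and 8.50 in control pools. Array 2 held both the lowest mutant level and the highest control level, and on arrays 1, 3 and 4 every mutant level was above every control level. The ratios were 0.50, -1.23, 0.67 and 0.92, with a mean of 0.22 ± 0.98 (SD, n = 4; 95% interval -0.70 to 1.13; adjusted p = 0.826, limma).

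Without array 2 the Pmaip1 mean was 0.70 ± 0.21 (SD, n = 3; 95% interval 0.45 to 0.95), and its adjusted p of 0.0551 in limma lay just above the threshold. In the control pool of array 2, markers of uterus and decidua had a summed signal of 139285, against 110684 to 115349 in the other control pools and 130800 to 143947 in the mutant pools. Of the 10 such markers, 8 were above background in mutant pools and 6 in control pools on most arrays, and their median ratio on array 2 was -2.09. Acta2, an actin that heart tissue also expresses, made up most of each sum, with 125279 to 136673 in mutant pools and 95894 to 109410 in control pools. Some other markers of the list stood apart in the control pool of array 2. Hoxa11 had 85.2 to 393 in mutant pools and 8808 in that pool. Lum, a matrix proteoglycan, had 1400 to 3060 in mutant pools and 19729 in that pool. Prl8a2, a decidual marker, was instead highest in the mutant pool of array 3, with 2466. In the control pool of array 2 it had 1227, and in the other control pools 340 to 396. Leukocyte markers, all 7 above background, summed to 43681 in that control pool, against 8255 to 11663 in the mutant pools and 10331 to 13790 in the other control pools. The part of these cells in the Pmaip1 value of array 2 was not tested.

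Of the other death genes, Trp53inp1 had the mean farthest from 0 among the 10 with 4 arrays and loess normalization. Without array 2 Pmaip1 was farther from 0. With median centring Pmaip1 and Mdm2 were the farthest from 0, at 0.42 each, and Trp53inp1 had -0.13. Trp53inp1 encodes a nuclear stress protein that helps p53 to start apoptosis and also acts in autophagy. The brightest probe (chr4:11101174-11101233 in mm7, plus strand) had levels of 11.48, 12.06, 11.83 and 12.06 in mutant pools, against 12.31, 12.41, 12.31 and 12.43 in control pools. All mutant pools were below all control pools, and the control pools lay close together while mutant pool 1 was the lowest.

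The Trp53inp1 ratios were -0.83, -0.35, -0.48 and -0.37. Their mean of -0.51 ± 0.22 (SD, n = 4; 95% interval -0.76 to -0.26) corresponds to a mutant level of 0.703 times the control level. The adjusted p was 0.154 with 4 arrays and 0.0758 without array 2 (limma), so the difference did not pass the threshold although it had 1 sign throughout. The probe with the repeated unit gave 0.15, 1.18, -0.53 and -0.68, a mean of 0.028 ± 0.85 (SD, n = 4), or -0.35 ± 0.44 without array 2, and carried no usable direction.

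Perp, a membrane protein of desmosomes that p53 raises during apoptosis, had levels of 13.07, 13.36, 13.60 and 13.71 in mutant pools and 13.59, 13.68, 13.84 and 13.65 in control pools. Its probe (chr10:18579623-18579682 in mm7, plus strand) gave ratios of -0.52, -0.32, -0.24 and 0.058, lower on arrays 1 to 3. They averaged -0.26 ± 0.24 (SD, n = 4; 95% interval -0.52 to 0.0059; adjusted p = 0.352, limma). Perp also marks epithelia, and of 12 epithelial markers 10 were above background in both channels, with summed signals of 57674 to 75248 in mutant pools and 47744 to 61585 in control pools. Krt8, Krt18, Krt19 and Dsp made up most of these sums, and the markers did not move together. Krt19 had ratios of 1.45, 0.77, 1.97 and 1.36, and Cdh1 had -0.62, -2.08, 0.60 and 0.79. The median ratios of the list were -0.035, -0.0082, 0.13 and 0.20 on arrays 1 to 4. The part of epithelial cells in the Perp values was not tested.

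Phlda3, a pleckstrin homology protein that restrains Akt signalling, had levels of 13.76, 13.80, 14.00 and 14.06 in mutant pools and 13.94, 14.20, 14.11 and 14.04 in control pools. The ratios at its probe (chr1:135655060-135655119 in mm7, plus strand) were -0.18, -0.40, -0.11 and 0.025. With a mean of -0.17 ± 0.18 (SD, n = 4; 95% interval -0.38 to 0.048; adjusted p = 0.441, limma) the gene was lower on arrays 1 to 3 and near 0 on array 4. Without array 2 the mean was -0.089 ± 0.10 (SD, n = 3).

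The 2 remaining genes act on growth and stress. Sesn1 encodes sestrin 1, which lowers mTORC1 signalling and oxidative stress, and had the lowest SD between arrays of the 10 genes. Its brightest probe (chr10:41718855-41718914 in mm7, plus strand) had levels of 11.93, 12.20, 12.02 and 12.07 in mutant pools, against 12.27, 12.35, 12.32 and 12.32 in control pools, with no overlap. The ratios of -0.34, -0.15, -0.30 and -0.24 averaged -0.26 ± 0.084 (SD, n = 4; 95% interval -0.42 to -0.10; adjusted p = 0.200, limma), or -0.30 ± 0.049 without array 2 (SD, n = 3; adjusted p = 0.0823).

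Ccng1 encodes cyclin G1, which recruits a phosphatase to Mdm2. Levels of its brightest probe (chr11:40691782-40691841 in mm7, minus strand) were 12.36, 12.39, 12.43 and 12.45 in mutant pools and 12.76, 12.59, 12.59 and 12.51 in control pools. Again no mutant pool reached the lowest control pool, although the gap on array 4 was small. The ratios of -0.40, -0.20, -0.17 and -0.067 had a mean of -0.21 ± 0.14 (SD, n = 4; 95% interval -0.40 to -0.020; adjusted p = 0.309, limma).

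**Figure D2:**
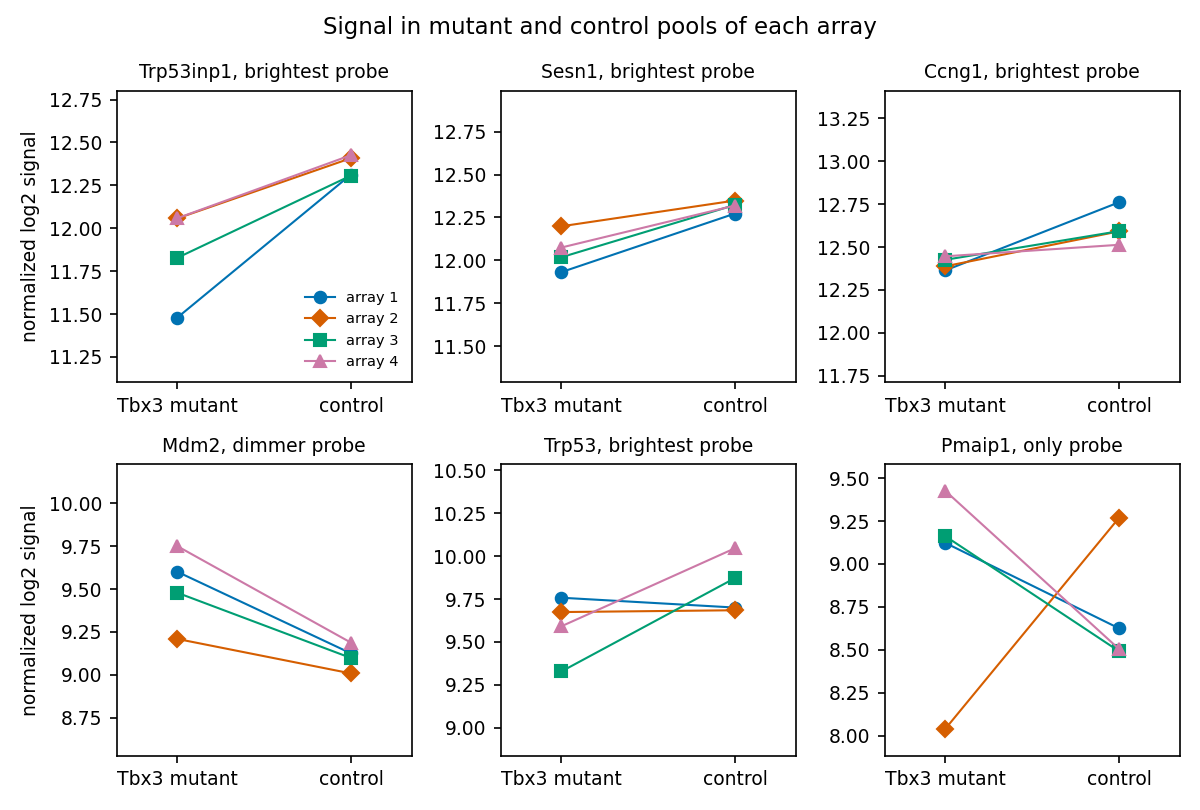
Normalized log2 signal (y axis) in the Tbx3 mutant pool, left, and the control pool, right, of each array, joined by a line per array. All mutant levels lie below all control levels for Trp53inp1, Sesn1 and Ccng1 and above them for the dimmer Mdm2 probe, and the Pmaip1 line of array 2 runs against the other 3.

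The value of a gene depended on the probe that read it. In each of the 5 genes with several probes, the most downstream probe was also the brightest and had a lower mean ratio than the others of its gene. The difference of downstream minus other probes was -0.54 for Trp53inp1, -0.38 for Trp53, -0.34 for Mdm2, -0.23 for Sesn1 and -0.23 for Ccng1. It had 1 sign on all 4 arrays for Trp53, Mdm2 and Sesn1, but not for Trp53inp1 or Ccng1. The Trp53inp1 difference rests on the probe with the repeated unit, which carried no usable direction.

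The 3 probes of Sesn1 formed a series along the transcript. Their brightness rose in the same order, so place and brightness cannot be told apart. The most upstream one, within chr10:41709061-41713223 in mm7, averaged 0.043 ± 0.048, the middle one, shown above, -0.10 ± 0.12, and the downstream one -0.26 ± 0.084 (SD, n = 4 each). The second Ccng1 probe, shown above as well, averaged 0.019 ± 0.26 (SD, n = 4), with ratios of 0.092, -0.36, 0.12 and 0.23, and 0.15 ± 0.071 without array 2, so the negative value of Ccng1 came from the downstream probe and not from the other. Without array 2 the upstream and middle Sesn1 probes averaged 0.027 ± 0.043 and -0.16 ± 0.043 (SD, n = 3 each).

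Such a lean was not particular to these genes. Among 6511 genes with at least 2 placed probes, the downstream probe was the brightest in 68.94% and read lower than the others in 64.15%, but the median difference was only -0.051, against -0.34 for the 5 genes here. No test was made of that contrast. With the mean over all probes of a gene in place of the brightest, the median of the 10 genes was -0.094.

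**Figure D3:**
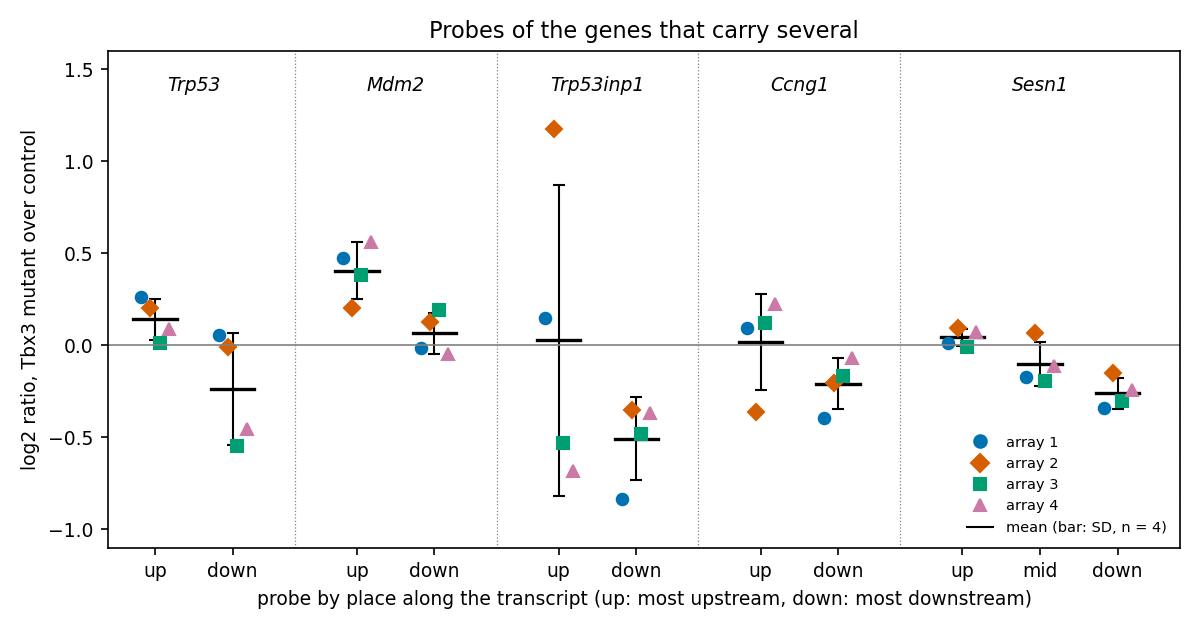
Log2 ratio of Tbx3 mutant over control (y axis) for every probe of the 5 p53 response genes with several probes, ordered from upstream to downstream, with 1 symbol per array, the mean and the SD. The downstream probe of each gene has the lower mean, with differences of -0.23 to -0.54. The largest is that of Trp53inp1, whose upstream probe holds the repeated unit and carried no usable direction.

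Leaving out array 2 called none of the 10 genes either, although 1.01% of all genes passed the threshold on arrays 1, 3 and 4. An unadjusted p under 0.05 was then reached by 3, where 23.2% of all genes reached it: Trp53inp1 and Sesn1 with negative means and Pmaip1 with a positive one. Of the 10 means 7 were negative, as were 9096 of 19091 over all genes. The median of the 10 was -0.15, against 0.0097 for all genes.

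Summed signals of cell type markers are given beside the members' values. Markers listed for canal myocardium, all 7 above background, had summed signals of 839741 to 992336 in mutant pools and 493411 to 626455 in control pools. The muscle genes Tnnt2, Myh6, Myh7, Myl7 and Actc1 made up most of these sums, which thus stand for heart muscle rather than for the canal. Those of cushion mesenchyme, 6 of 6, summed to 80898 to 85546 in mutant pools and 103641 to 495915 in control pools, the last in the pool of array 2. In that pool Col1a1 (284617) and Col3a1 (147417) made up most of the sum. In neither list did the sums of the groups overlap, though not every marker ran with its sum: the myocardial marker Bmp2 had ratios of -0.51, 0.48, -0.52 and -0.37. Tbx2, of the same list, had ratios of 0.018, 0.55, 0.15 and 0.40. Of the cushion markers, Twist1 had 0.036 on array 2 and Col3a1 0.0076 on array 3. All other ratios of the cushion markers were below 0. By comparison, endocardial markers, 5 of 5, ranged from 18396 to 20387 in mutant pools and from 18254 to 20423 in control pools. The part of these differences in the lower values of Trp53inp1, Sesn1 and Ccng1 was not tested.

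Erythroid markers, 6 of 6 above background, summed to 709067 to 1077250 in mutant pools and 265903 to 673777 in control pools. Their median ratio was 1.81 on array 1. On that array Trp53inp1, Perp, Ccng1 and Sesn1 had their lowest ratios, and Trp53, Bax and Bbc3 had their highest. This was not tested further.

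Other genes of the pathway were set beside the 10. Of 64 other regulators and targets of p53 that were listed, 60 were measured, none passed the threshold, and 2 reached an unadjusted p under 0.05 with a negative mean and 6 with a positive one. Over all genes the shares were 14.6% in either direction and 7.1% with a positive mean, so the count of 8 was near that of any genes. Their median was -0.0051 with 4 arrays, with 31 means below 0 and 29 above, where 49.7% of all genes lay below 0. Without array 2 the median was 0.047, with 25 means below 0. Then 18 of the 60 reached an unadjusted p under 0.05, where 23.2% of all genes did, and 1 passed the threshold. The difference between the 10 genes and this larger list was not tested.

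Regulators of p53, with 17 of 20 measured, had a median of -0.012 with 4 arrays and -0.061 without array 2. With 4 arrays none reached an unadjusted p under 0.05, where 14.6% of all genes did. Without array 2 it was reached by 3, where 23.2% of all genes reached it. Mdm4, the partner of Mdm2, averaged 0.12 ± 0.14 (SD, n = 4; adjusted p = 0.533, limma), or 0.077 ± 0.14 without array 2. The checkpoint kinase gene Chek2 had -0.16 ± 0.13 (adjusted p = 0.398) and the acetyltransferase gene Kat5 0.13 ± 0.082 (adjusted p = 0.416), each with 1 sign on all 4 arrays. Cdkn2a, whose Arf product inhibits Mdm2, was not well above background on any array in either channel.

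Among 12 measured targets in cell cycle arrest and growth, the median was 0.054 with 4 arrays and 0.26 without array 2. With 4 arrays 1 gene reached an unadjusted p under 0.05 in each direction. Over all genes 7.45% reached it with a negative mean and 7.1% with a positive one. Without array 2 it was reached by 5 of the 12 in either direction, where 23.2% of all genes reached it. Cdkn1a, the CDK inhibitor p21 and the best known arrest target of p53, had ratios of 0.42, 0.28, 0.40 and 0.18. It was higher on every array, with a mean of 0.32 ± 0.11 (SD, n = 4; adjusted p = 0.169, limma). Gtse1, a mitotic protein that restrains p53, averaged -0.29 ± 0.18 (SD, n = 4; adjusted p = 0.250).

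The 14 targets in death and survival had a median of -0.0055 with 4 arrays and 0.051 without array 2. With 4 arrays 7 means lay below 0 and 7 above. An unadjusted p under 0.05 was reached by 1 gene in each direction. Over all genes 7.45% reached it with a negative mean and 7.1% with a positive one. Ei24, a membrane protein of the endoplasmic reticulum, averaged -0.37 ± 0.21 and was lower on all 4 arrays (SD, n = 4; adjusted p = 0.205, limma). Dram1, a lysosomal protein of autophagy, had ratios of -0.12, -0.96, -0.0033 and -0.12, so its mean of -0.30 ± 0.44 rested on array 2. Without that array it was -0.082 ± 0.069.

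Targets in DNA repair and metabolism, 17 of 18 measured, had a median of 0.058, with 4 genes at an unadjusted p under 0.05, all with positive means, where 7.1% of all genes reached it with a positive mean. Without array 2 the median was 0.099 and 7 genes reached it, against 23.2% of all genes. Gls2, a mitochondrial glutaminase, had ratios of 0.62, -0.22, 0.87 and 0.65. Its mean was 0.48 ± 0.48 with 4 arrays (adjusted p = 0.332, limma) and 0.71 ± 0.13 without array 2, where it passed the threshold (adjusted p = 0.0421).

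Of the BCL-2 family outside the 10 genes, 12 of 15 were measured, with a median of -0.0013, or 0.032 without array 2. The survival genes Bcl2 and Bcl2l1 averaged 0.073 ± 0.23 and 0.030 ± 0.15, and Mcl1, which the Pmaip1 protein blocks, -0.31 ± 0.13 with ratios of -0.14, -0.28, -0.36 and -0.45 (SD, n = 4 each; adjusted p = 0.780, 0.894 and 0.198 in that order, limma). Without array 2 the Bcl2 mean was 0.14 ± 0.22. Bnip3, a mitochondrial protein of mitophagy that hypoxia is known to raise, had ratios of 0.90, 0.55, 1.25 and 1.02. It averaged 0.93 ± 0.29 with 4 arrays (adjusted p = 0.127) and 1.05 ± 0.18 without array 2, where it passed the threshold (adjusted p = 0.0350).

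All 8 caspase genes measured, which encode the proteases of apoptosis and inflammation, had means below 0 with loess normalization, as did 49.7% of all genes. Their median was -0.17, though none passed the threshold. Casp2 had -0.28 ± 0.13 and Casp6 -0.18 ± 0.18 (SD, n = 4 each; adjusted p = 0.216 and 0.422, limma), each lower on all 4 arrays. Casp1, which acts in inflammation, had -3.41 on array 2 and -0.16 to 0.058 on the others. Without array 2 only 6 of the 8 means were below 0, against 9096 of 19091 over all genes, and the median was -0.11. Casp1 is named because it was the lowest in its list, which was seen after its values were known.

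**Figure D4:**
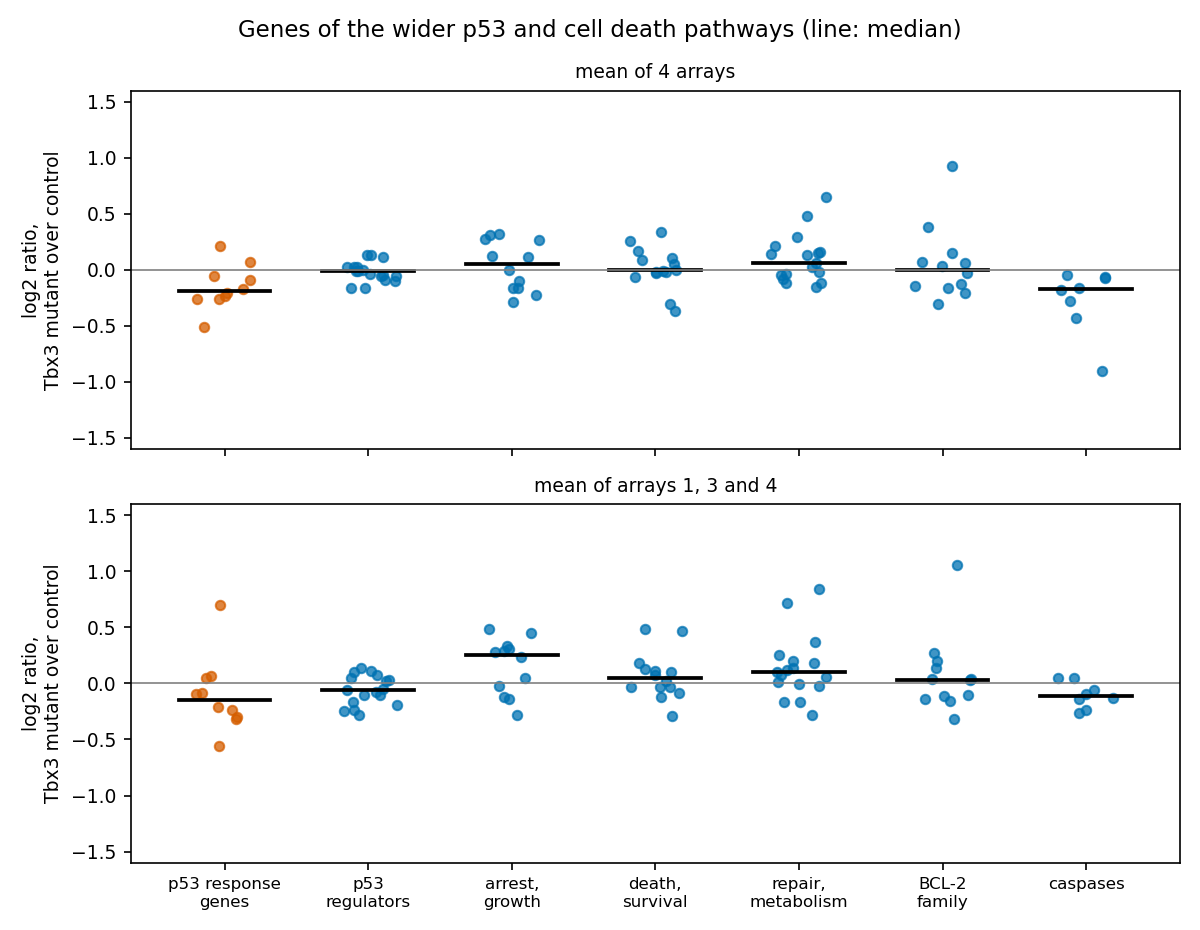
Mean log2 ratio of Tbx3 mutant over control (y axis) of each measured gene in the 10 p53 response genes, the lists of regulators and other targets, the BCL-2 family and the caspases, with 4 arrays above and without array 2 below; lines are medians. With loess normalization, the 10 genes have a median of -0.19 with 4 arrays and -0.15 without array 2, and the arrest and growth targets have 0.054 and 0.26.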

How the data were processed

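Total RNA of pooled canal tissue was amplified, labelled and hybridized to 2-colour arrays of 60-base probes, 4 arrays on 1 slide read in 1 scan. Arrays were read with Agilent Feature Extraction 9.5.1, per the submitters' processing notes. The deposited intensity of a spot is its mean pixel signal in each channel, given with a median for the background around it, and the deposited processed intensity was background-subtracted, detrended and dye-normalized by the scanner software, per the file headers. A log10 ratio of the red to the green channel, hence of mutant to control, was also deposited, and the values of the series table equalled it to within 5e-07. Other deposited columns are the scanner software's flags, per the file headers.

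Here the signals were corrected with normexp (offset 50) and normalized by loess within each array (limma 3.58.1, R 4.3.3). Spots marked as non-uniform were dropped, and repeated spots were averaged per probe. A probe was kept if 1 or both channels were well above background on 3 or more of the 4 arrays (28794 of 41174), and the probe with the highest mean signal stood for a gene. Names came from a RefSeq gene table: 22951 probes matched by accession, 6659 by symbol and 3109 by synonym, and 8455 kept the files' name. Ratios of the 19091 genes were tested against 0 by a 2-sided moderated test (lmFit, eBayes), and p-values were adjusted over all genes by the Benjamini-Hochberg method. Levels are log2 signals after loess and Aquantile scaling, and marker sums are these levels on a linear scale. The scripts were tested on simulated data. Members, lists and the naming rule (all members; per list, genes past the threshold with 4 or 3 arrays, otherwise the 2 largest means of 1 sign, and a set that includes Cdkn1a, Mdm4, Bcl2, Bcl2l1 and Mcl1) were chosen with earlier results of these data known. A mutant and a control pool with 1 number share an array, which pairs them.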

Additional observations from a re-analysis of the deposited data

Results flagged for a closer look

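In 51 sets of 4 values examined for 1 value far from the other 3 (Dixon's test at the 95% level), 2 stood out, and chance alone gives about 1 in 20. The first is the control level of the brightest Mdm2 probe on array 3, 11.549 on the log2 scale, where the other 3 control levels lay between 11.591 and 11.599. These 4 control levels were very close together, so the gap is small in itself. The second is the ratio of Dram1 on array 2, -0.965, where the other 3 arrays had -0.12, -0.0033 and -0.12.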

How the results depend on the processing

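The median of the 10 genes was negative in 13 of 14 alternatives and none of the 10 passed the threshold in 13 of 14. The exception to both was median centring of each array in place of loess, which gave a median of 0.26 and 2 genes past the threshold, Mdm2 (0.42) and Phlda3 (0.35). Median centring also moved the median of all genes to 0.23 and that of genes as bright as the 10 to 0.34. It called 7772 genes (40.7%), 7202 higher and 570 lower, against 1 lower with loess. Under it, the values of Trp53 (0.033), Bax (0.31), Bbc3 (0.31), Phlda3 (0.35), Perp (0.22), Ccng1 (0.19) and Sesn1 (0.12) turned positive. Leaving out 1 replicate gave Bbc3 values of -0.16 to 0.064, positive without replicate 2, and Pmaip1 values of -0.020 to 0.70, negative without replicate 4. The number of genes past the threshold was 0 without background subtraction, 3 with the deposited log ratio, 0 with the mean over all probes of a gene, 402 with array weights and 188 with no replicate block (channels unpaired). Without 1 of the replicates it was 0 to 193, with 193 without array 2. The median of the 10 genes was then -0.20 to -0.15, with no member called. With the mean over all probes it was -0.094. The cause of these changes was not tested. Every member was well above background on all 4 arrays, and the number of arrays limits the precision.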
